A study of Ovis aries with 12 samples.

Results

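The endothelial cell markers were 10 genes: CD34, PECAM1, CDH5, TIE1, TEK, VWF, TMEM88, BTNL9, TM4SF18 and ESAM. They were followed in the sheep corpus luteum, the ovarian gland that secretes progesterone, with every probe set that the array's annotation ties to one of these symbols alone. This gave 13 probe sets for 9 of the genes, of 24016 probe sets and 9155 genes in all. CDH5, PECAM1, TM4SF18 and VWF had a pair of probe sets each, and ESAM, an adhesion molecule of endothelial junctions, was not analysed here. The question was whether endothelial genes are low together in the regressing gland or only some of them. The genes were picked with results from the day 14 non-pregnant glands already known. Wherever those glands enter a comparison, the markers' values are therefore a description with no test.

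Luteal RNA came from 12 ewes with 1 array each, in 4 groups of 3: day 14 pregnant, day 14 non-pregnant, day 12 pregnant and day 12 non-pregnant. Pregnancy was set up by breeding to a fertile ram. The non-pregnant ewes were unbred and had their cycle day followed with a vasectomized ram. No other treatment or genotype is labelled, and breed and age are not given in the sources used here. Groups were taken from the source label, since the titles call every array day 12 pregnant, in conflict with the source labels of 9 arrays.

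Endothelial cells line the blood vessels, and in the corpus luteum they form a dense capillary bed beside the steroid-making cells. If no embryo is recognised, prostaglandin F2 alpha from the uterus starts luteolysis, in which progesterone output stops and the vascular bed is later lost. In early pregnancy interferon tau from the conceptus prevents this, and the gland and its vessels persist. The genes followed here cover different sides of endothelial identity: cell surface and junction proteins, the Tie receptors for angiopoietins, a secreted clotting protein, and membrane proteins known mainly from their vascular expression.

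Values are log2 intensities of the deposited table, and each difference is a fitted log2 difference ± its standard error, with array batch as a term of the linear model. Because of that term a difference can depart from the plain difference of the group means. The 3 day 14 non-pregnant arrays stood apart: on the first principal component, with 29.6% of the variance, they lay at 18.1, 33.7 and 40.4, against -13.0 to -7.00 for the other 9. Batch A, the arrays whose description says gene array, held replicates 2 and 3 of the day 14 non-pregnant group and 1 array of each pregnant group. Batch B held the other 8, which are described as genome arrays. Whether these words stand for separate runs or array designs is not given in the sources used here. Of 15 luteal steroidogenic genes 12 were measured and 0 were dim, meaning in the lowest 25% by mean level (under 3.59). Of the 13 marker probe sets 1 was dim, the weaker one of VWF.

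In the day 14 non-pregnant gland the endothelial markers split. CD34, TIE1, TMEM88, BTNL9 and TM4SF18 were low in all 3 ewes. PECAM1 was high in 2 of the 3 ewes, and CDH5, TEK and VWF overlapped the pregnant group. The probe sets of VWF hardly followed each other over the arrays (Pearson r = 0.06) and those of CDH5 only loosely (r = 0.34). The overlap of these genes is therefore a less firm reading. By adjusted p under 0.05 in limma, 6 of the 13 probe sets were called higher in day 14 pregnant than in day 14 non-pregnant glands and 0 lower. Over all probe sets 1.45% were called, 0.537% as higher. The groups did not overlap, with pregnant higher, in the same 6 probe sets, against 11.1% of all. The count of calls was 0 in a fit of only the day 14 groups and without day 14 pregnant replicate 3, and 1 when replicates 2 and 3 of the day 14 non-pregnant group were both left out. In bulk tissue, fewer cells of a type and less RNA per cell cannot be told apart.

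Among the surface and junction proteins, CD34, a sialomucin of vascular endothelium and of blood-forming progenitors, had levels of 8.38, 8.42 and 8.22 in day 14 pregnant glands, against 7.66, 6.76 and 7.07 in day 14 non-pregnant glands. On day 12 CD34 had 8.36, 8.22 and 8.40 in pregnant glands, against 7.94, 7.97 and 7.91 in non-pregnant glands. The 3 day 14 non-pregnant values were the lowest of the 12, and all pregnant values lay above all non-pregnant ones. The SD of CD34 was 0.46 in the day 14 non-pregnant group, against 0.03 to 0.11 in the others, so the model's pooled spread understates this group. The fitted difference on day 14 was 1.09 ± 0.16, or 2.13-fold higher in pregnant glands. Within batches it was 1.31 in A and 0.74 in B.

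PECAM1, an adhesion molecule of endothelial contacts that leukocytes and platelets also carry, differed from CD34 in direction. Its brighter probe set had 10.17, 9.96 and 10.01 in day 14 pregnant glands, against 10.72, 9.93 and 10.56 in day 14 non-pregnant glands. On day 12 PECAM1 had 10.29, 9.61 and 10.06 in pregnant glands, against 10.00, 9.51 and 9.72 in non-pregnant glands. The day 14 non-pregnant replicates 1 and 3 were the highest of all 12, while replicate 2 lay among the rest. On day 14 the fitted difference, pregnant minus non-pregnant, was -0.40 ± 0.22, and -0.49 ± 0.19 for the dimmer probe set. The 2 probe sets of PECAM1 followed each other closely over the 12 arrays (Pearson r = 0.96, across the same arrays).

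Macrophage genes, with 14 of 17 listed measured, had a mean level of 6.20 to 7.15 in day 14 non-pregnant glands, against 6.34 to 6.81 in day 14 pregnant glands, 6.41 to 6.51 in day 12 pregnant glands and 6.11 to 6.55 in day 12 non-pregnant glands. The mean level of 8 neutrophil genes was 4.34 to 4.55 in day 14 non-pregnant glands, against 4.25 to 4.31 in day 14 pregnant, 4.17 to 4.32 in day 12 pregnant and 4.18 to 4.29 in day 12 non-pregnant glands. None of these 22 genes passed the test in any comparison, and their part in the level of PECAM1 was not tested. Of 14 platelet genes 4 were measured and 3 of those were dim.

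CDH5, the VE-cadherin of endothelial adherens junctions, had levels of 8.48, 8.18 and 8.21 in day 14 pregnant glands, against 8.57, 8.14 and 8.23 in day 14 non-pregnant glands. On day 12 CDH5 had 8.32, 8.19 and 8.26 in pregnant glands, against 8.52, 8.40 and 8.21 in non-pregnant glands. The groups overlapped throughout. The fitted day 14 differences were -0.08 ± 0.13 and -0.09 ± 0.14 for its probe sets, which followed each other only loosely (r = 0.34 over 12 arrays).

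Of the Tie receptors, TIE1 did not overlap between the day 14 groups and TEK did, and they were not compared with each other. TIE1, the partner receptor that does not itself bind angiopoietins strongly, had levels of 7.10, 7.02 and 7.15 in day 14 pregnant glands, against 6.54, 6.76 and 6.68 in day 14 non-pregnant glands. On day 12 TIE1 had 7.34, 7.17 and 7.44 in pregnant glands, against 6.92, 6.97 and 6.86 in non-pregnant glands. No pair of neighbouring groups overlapped, in the order day 12 pregnant, day 14 pregnant, day 12 non-pregnant and day 14 non-pregnant. The day 14 difference was 0.48 ± 0.09, or 1.39-fold higher in pregnant glands, and it was 0.43 in batch A alone and 0.51 in batch B alone.

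TEK, the receptor tyrosine kinase that binds the angiopoietins, had levels of 7.92, 7.74 and 8.31 in day 14 pregnant glands, against 8.05, 7.34 and 7.70 in day 14 non-pregnant glands. On day 12 TEK had 7.68, 7.48 and 7.73 in pregnant glands, against 7.96, 8.02 and 7.66 in non-pregnant glands. Neighbouring groups in the order of the means overlapped. The day 14 difference was 0.30 ± 0.20, and within batches its sign turned, with 0.79 in A and -0.22 in B. Without day 14 pregnant replicate 3, the highest array, it was 0.01.

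VWF, the multimeric clotting protein that endothelial cells store and secrete, had levels of 4.43, 4.43 and 4.32 in day 14 pregnant glands, against 4.45, 4.25 and 4.72 in day 14 non-pregnant glands. On day 12 VWF had 4.70, 4.53 and 4.57 in pregnant glands, against 4.60, 4.56 and 4.34 in non-pregnant glands. The day 14 difference was -0.10 ± 0.13, and 0.05 ± 0.12 for the dim probe set. The probe sets of VWF hardly followed each other over the 12 arrays (r = 0.06), so neither is a firm measure of the transcript.

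The membrane proteins with less studied roles had the largest day 14 differences beside CD34. TMEM88, which is known to bind Dishevelled and dampen Wnt signalling, had levels of 7.24, 7.48 and 7.46 in day 14 pregnant glands, against 6.22, 4.90 and 5.45 in day 14 non-pregnant glands. On day 12 TMEM88 had 7.24, 7.33 and 7.35 in pregnant glands, against 7.22, 6.93 and 6.92 in non-pregnant glands. The 3 day 14 non-pregnant values lay below all other arrays and were spread over more than 1 log2 unit, with an SD of 0.67 against 0.06 to 0.17 in the other groups. The fitted day 14 difference was 1.77 ± 0.24, or 3.42-fold higher in pregnant glands, and it was 2.29 in batch A alone and 1.14 in batch B alone.

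BTNL9, a membrane protein of the butyrophilin family, had levels of 5.46, 5.83 and 5.45 in day 14 pregnant glands, against 4.24, 4.53 and 3.81 in day 14 non-pregnant glands. On day 12 BTNL9 had 5.44, 4.82 and 5.79 in pregnant glands, against 5.51, 5.51 and 5.02 in non-pregnant glands. Only the day 14 non-pregnant group stood apart, and the other 3 groups overlapped each other. The day 14 difference was 1.43 ± 0.26, or 2.70-fold higher in pregnant glands, and it was close in size in the batches, at 1.28 in A and 1.41 in B.

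TM4SF18, a membrane protein of the L6 family, had levels of 11.09, 11.01 and 10.52 by its brighter probe set in day 14 pregnant glands, against 10.36, 9.33 and 9.01 in day 14 non-pregnant glands. On day 12 TM4SF18 had 11.27, 10.82 and 10.72 in pregnant glands, against 10.49, 11.08 and 10.75 in non-pregnant glands. Replicate 1 of the day 14 non-pregnant group came within 0.2 log2 units of the lowest other array, and replicates 2 and 3, both of batch A, were far lower. The day 14 differences were 1.08 ± 0.21 and 1.01 ± 0.19 for its probe sets, which followed each other over the arrays (r = 0.98). Within batch A they were 1.35 and 1.28, and within batch B 0.69 and 0.64.

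**Figure D1:**
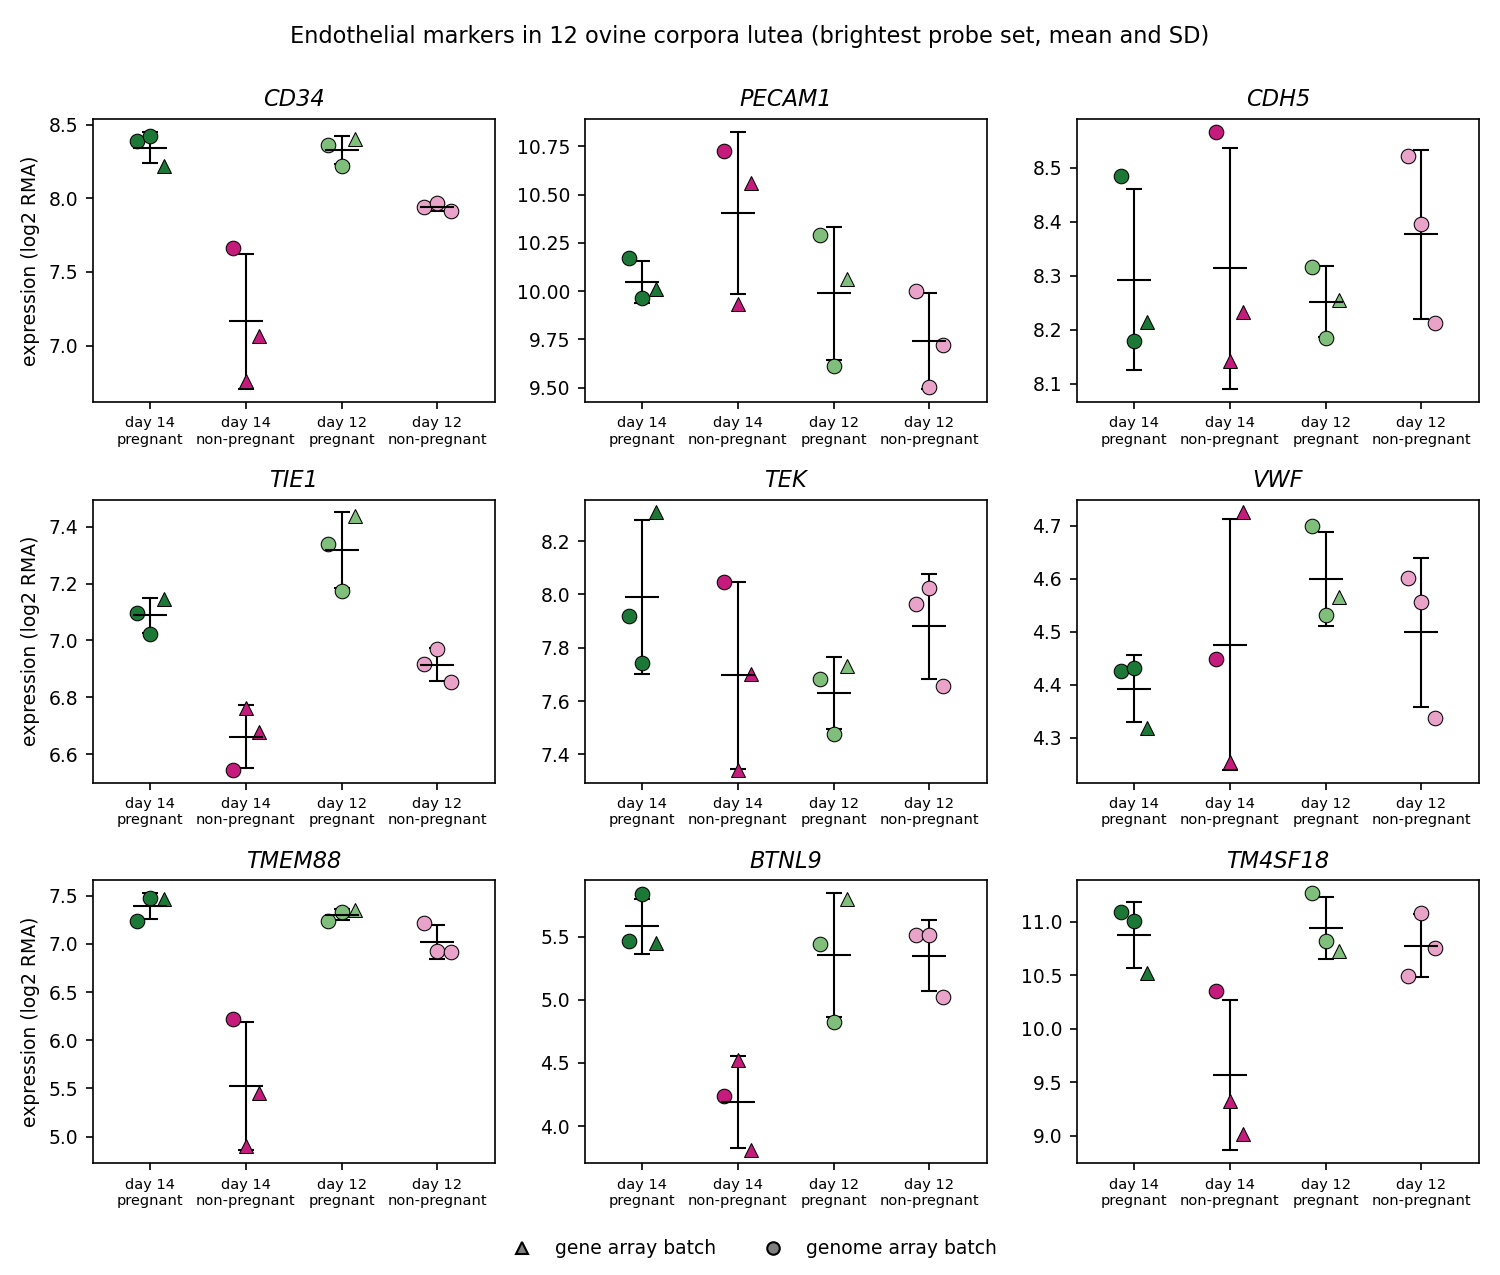
Log2 level of each of the 9 measured endothelial markers (brightest probe set, 1 panel per gene with its own axis) in the 12 glands. Each point is 1 ewe, the bar is the group mean and the marker shape gives the array batch. CD34, TIE1, TMEM88, BTNL9 and TM4SF18 have their lowest 3 values in the day 14 non-pregnant group, while PECAM1 has its highest 2 there.

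The split can be counted without a model. In 6 probe sets, those of the 5 genes above, all 3 day 14 non-pregnant values lay below all other 9 values, a pattern that 3.62% of all probe sets had. In 0 probe sets all 3 lay above, against 2.91% of all. Since the genes were chosen with these arrays in view, the counts describe the genes and support nothing further.

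The non-pregnant glands were also compared between days. For day 14 minus day 12, TMEM88 had -1.30 ± 0.27, BTNL9 -1.24 ± 0.29, TM4SF18 -0.76 ± 0.23 and -0.99 ± 0.21, CD34 -0.59 ± 0.18 and TIE1 -0.35 ± 0.10. PECAM1 had 0.76 ± 0.25 and 0.82 ± 0.21, TEK -0.21 ± 0.22, CDH5 0.05 ± 0.14 and 0.06 ± 0.15, and VWF 0.00 ± 0.14 and -0.02 ± 0.14. By limma's adjusted p 0 of the 13 probe sets were called, against 0.391% of all probe sets, and 8 had an unadjusted p under 0.05, 2 of them higher and 6 lower, against 11.7% of all. Without the batch term the brighter probe set of TM4SF18 had -1.21. In 6 probe sets the groups did not overlap and day 14 was lower (12.1% of all probe sets), and in 1, the dimmer of PECAM1, day 14 was higher (7.67%).

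Only batch B held both non-pregnant groups, with 1 day 14 array. There the plain difference, day 14 minus day 12, was -0.80 for TMEM88, -1.11 for BTNL9, -0.42 and -0.68 for TM4SF18, -0.27 for CD34 and -0.37 for TIE1. PECAM1 had 0.98 and 1.01 in that batch, and TEK had 0.17. This comparison shares its day 14 arrays with the day 14 pregnancy comparison, so they are not separate pieces of evidence.

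The interaction, the pregnancy difference on day 14 minus that on day 12, was called for 0 of the 13 probe sets by limma, against 0.0874% of all. In limma 6 had an unadjusted p under 0.05, 5 of them above 0 and 1 below, against 9.42% of all. The interaction was 1.47 ± 0.38 for BTNL9, 1.39 ± 0.35 for TMEM88, 0.61 ± 0.24 for CD34 and 0.12 ± 0.13 for TIE1. TM4SF18 had 0.69 ± 0.31 and 0.91 ± 0.28, TEK 0.57 ± 0.29, and PECAM1 -0.70 ± 0.33 and -0.80 ± 0.28. CDH5 had -0.01 ± 0.19 and -0.08 ± 0.20, and VWF -0.21 ± 0.19 and -0.05 ± 0.18. TIE1 thus had pregnancy differences close in size on both days, at 0.48 ± 0.09 on day 14 and 0.35 ± 0.09 on day 12, whereas BTNL9 had 1.43 ± 0.26 and -0.04 ± 0.26.

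**Figure D2:**
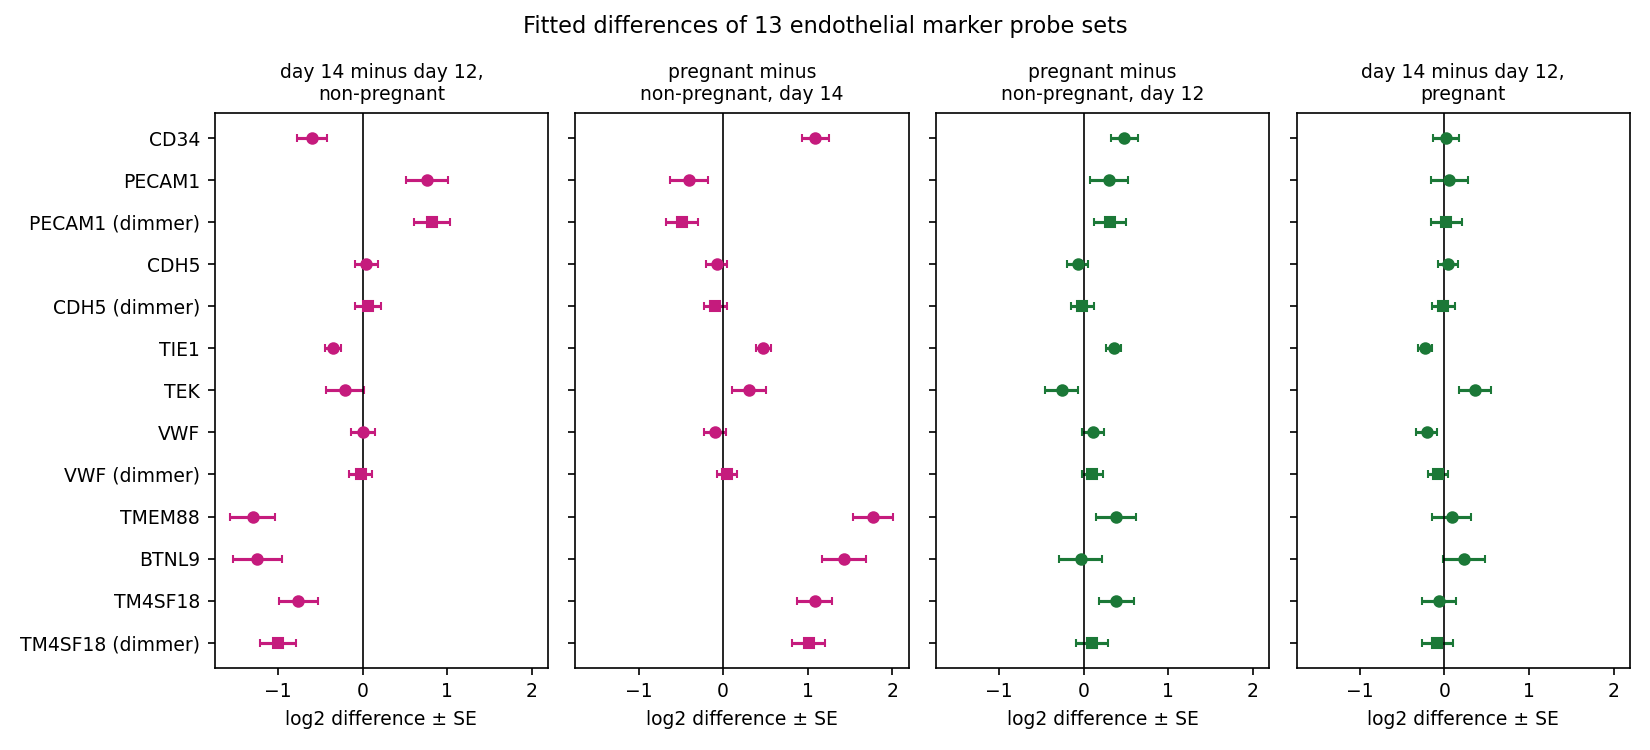
Fitted log2 difference of each of the 13 marker probe sets in the comparisons of the 4 groups, with bars for its standard error. TMEM88, BTNL9, TM4SF18, CD34 and TIE1 lie above 0 for pregnant minus non-pregnant on day 14 and below 0 for day 14 minus day 12 in non-pregnant glands, whereas PECAM1 lies on the other side in both.

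Day 12 pregnant against day 12 non-pregnant glands does not itself compare the day 14 non-pregnant arrays, although those arrays enter the fit through the batch term and the pooled spread. It also shares the day 12 non-pregnant arrays with the comparison between days. It asks whether the markers differ with pregnancy before the gland of the non-pregnant ewe regresses. None of the 13 probe sets passed the test in limma, where 0% of all probe sets did and 1847 had an unadjusted p under 0.05. The lowest adjusted p belonged to TIE1, 0.35 ± 0.09 (adjusted p = 0.382, 95% interval 0.16 to 0.55), and CD34, 0.48 ± 0.16 (adjusted p = 0.551, 95% interval 0.13 to 0.83). These were the 2 with an unadjusted p under 0.05. In a fit without the day 14 non-pregnant arrays, TIE1 had 0.36 ± 0.09 (limma, adjusted p = 0.324), CD34 0.40 ± 0.10 (adjusted p = 0.316) and TMEM88 0.26 ± 0.12 (adjusted p = 0.521), and 0 of the 13 passed.

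The pregnant values lay above the non-pregnant ones without overlap for CD34, TIE1 and TMEM88, and 8.56% of all probe sets did so in that direction. TMEM88 had 0.38 ± 0.24 (adjusted p = 0.753), TM4SF18 0.39 ± 0.21 by its brighter probe set (adjusted p = 0.706) and 0.10 ± 0.19 by its dimmer one (adjusted p = 0.941), PECAM1 0.29 ± 0.22 (adjusted p = 0.799) and TEK -0.26 ± 0.20 (adjusted p = 0.797). For BTNL9 the 95% interval of the difference was -0.61 to 0.53, for CDH5 -0.35 to 0.21 and for VWF -0.17 to 0.40, so shifts of that size in either direction are not excluded. Within batch B, the only one with both groups, TIE1 had 0.34 and CD34 0.35.

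Day 14 pregnant against day 12 pregnant glands asks whether the markers move as pregnancy goes on. None of the 13 passed the test in limma, where 0% of all probe sets did and 1063 had an unadjusted p under 0.05. TIE1 had -0.23 ± 0.08 (adjusted p = 0.992, 95% interval -0.42 to -0.04), with all 3 day 14 values below all 3 day 12 values, and it was the 1 probe set with an unadjusted p under 0.05. TEK had 0.36 ± 0.19 (adjusted p = 0.992, 95% interval -0.06 to 0.78), without overlap. Groups did not overlap in 1 marker probe set with day 14 higher (TEK) and in 3 with day 14 lower (TIE1 and both of VWF), against 4.58% and 5.32% of all probe sets.

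CD34 had 0.02 ± 0.15 between the pregnant groups (95% interval -0.32 to 0.36), TMEM88 0.09 ± 0.23 (-0.42 to 0.60) and BTNL9 0.23 ± 0.25 (-0.32 to 0.77). TM4SF18 had -0.06 ± 0.20 by its brighter probe set (-0.51 to 0.38), PECAM1 0.06 ± 0.21 (-0.41 to 0.53) and CDH5 0.04 ± 0.12 (-0.22 to 0.31).

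A wider list of 153 endothelial genes was chosen from general knowledge, but with earlier results of these data known. Of these genes 99 were measured by their brightest probe set, 6 of them dim. Tests of the list are therefore not independent of those earlier results. On day 14, 1 of the 99 passed as higher in pregnant glands and 0 as lower, against 1.94% of all genes. At an unadjusted p under 0.05, 18 were higher and 10 lower, against 9.62% and 8.60% of all genes. Their median difference was 0.13, against 0.03 over all genes, and 68 of the 99 lay above 0, against 55.6% of all genes. The median of the 9 markers by brightest probe set was 0.48, which their choice fixed in part.

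The gene that passed was LAMA4, the laminin chain of vessel basement membranes. It had levels of 9.12, 9.05 and 9.02 in day 14 pregnant glands, against 8.29, 8.30 and 8.65 in day 14 non-pregnant glands. On day 12 LAMA4 had 9.06, 9.14 and 9.49 in pregnant glands, against 8.76, 9.17 and 9.10 in non-pregnant glands. The day 14 non-pregnant values were the lowest of the 12, and the difference was 0.71 ± 0.14 (limma, adjusted p = 0.0358) and was 0.55 in batch A alone and 0.79 in batch B alone. When each array was left out in turn it passed in 3 of 12 fits, with adjusted p between 0.0314 and 0.107. The call of LAMA4 was also lost in limma with array weights (adjusted p = 0.0858) and with only the groups compared (adjusted p = 0.164). By the mean of all probe sets of the gene, the difference was 0.53 and did not pass (limma, adjusted p = 0.0718).

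By subgroup, junction and signalling genes had a median day 14 difference of 0.26 over 20 genes and haemostasis and adhesion genes 0.16 over 11. Surface and receptor genes had 0.13 over 35, transcription factors 0.09 over 16, and Notch, sprouting and matrix genes 0.00 over 17. At an unadjusted p under 0.05 in limma, 7 junction and signalling genes were higher and 1 lower. Notch, sprouting and matrix genes had 2 higher and 5 lower, and surface and receptor genes 6 and 3. Haemostasis and adhesion genes had 2 and 1, and transcription factors 1 and 0. Over all genes 9.62% were higher and 8.60% lower. A lymphatic endothelial list had 7 of 10 genes measured and a median of 0.17, with 0 past the test and 0 at an unadjusted p under 0.05.

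For day 14 minus day 12 in non-pregnant glands, 0 of the 99 passed in limma, against 0.502% of all genes, with 6 higher and 12 lower at an unadjusted p under 0.05 (6.72% and 6.63% of all genes). The smallest p-values belonged to LAMA4 (-0.71 ± 0.16, adjusted p = 0.0941), the sialomucin EMCN (-0.73 ± 0.17, adjusted p = 0.102) and the caveolar protein CAV2 (-0.48 ± 0.14, adjusted p = 0.184). The median was -0.08, against -0.02 over all genes, and 64 of the 99 lay below 0, against 53.5% of all genes.

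On day 12, 0 of the 99 passed in limma between pregnant and non-pregnant glands, with 4 higher and 5 lower at an unadjusted p under 0.05 (4.72% and 3.94% of all genes). The protease inhibitor A2M had -1.09 ± 0.24 (adjusted p = 0.325), the adhesion receptor ADGRL4 -0.45 ± 0.15 (adjusted p = 0.545) and ANGPT2, the TEK ligand that opposes ANGPT1, 0.69 ± 0.24 (adjusted p = 0.575). Between the pregnant groups 0 passed as well, with 3 higher and 1 lower at an unadjusted p under 0.05 (183 and 235 of all 9155 genes). A2M had 1.23 ± 0.23 (adjusted p = 0.840), the main VEGF receptor KDR -0.27 ± 0.10 and the G protein subunit gene GNA14 0.25 ± 0.10 (both adjusted p = 0.992).

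**Figure D3:**
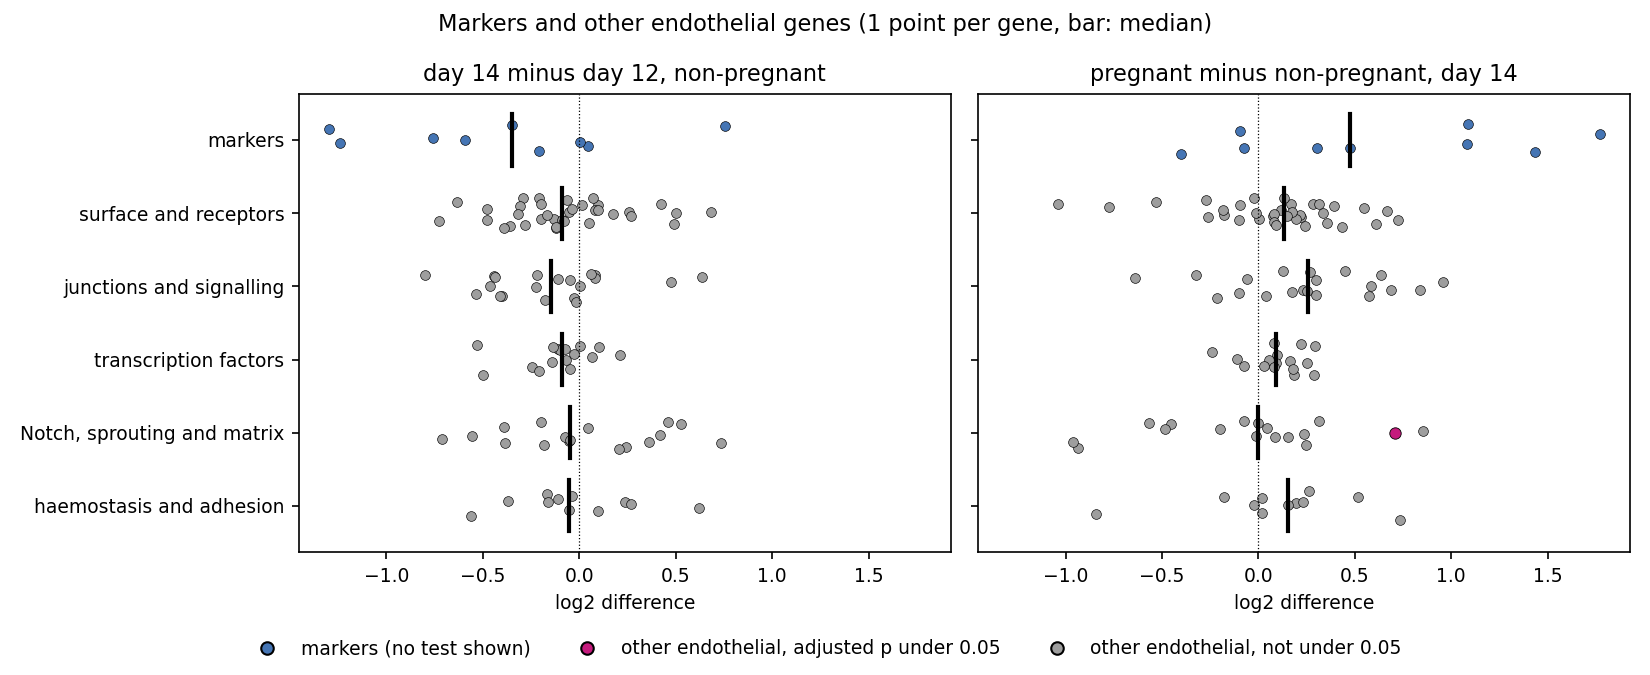
Fitted log2 difference of each endothelial gene (1 point per gene, brightest probe set) for day 14 minus day 12 in non-pregnant glands and for pregnant minus non-pregnant glands on day 14, by subgroup, with the median as a bar. The 9 markers spread from -0.40 to 1.77 on day 14, and LAMA4 is the 1 gene of the other 99 that passed the test.

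Genes of other cell types moved in the same samples. Their lists, too, were chosen with earlier results of these data known, so their tests are not independent of those results. Luteal steroidogenic genes had a mean level of 9.78 to 9.93 in day 14 pregnant glands, against 9.23 to 9.61 in day 14 non-pregnant glands, 9.84 to 9.86 in day 12 pregnant glands and 9.75 to 9.87 in day 12 non-pregnant glands. Of these 12 genes 2 passed as higher in day 14 pregnant glands, with a median of 0.44 over the list. Of all genes 1.94% passed. At an unadjusted p under 0.05 in limma, 7 of the 12 were higher and 0 lower, against 9.62% and 8.60% of all genes. The 2 that passed were NR5A2, a nuclear receptor of steroidogenic cells (1.16 ± 0.12, adjusted p = 0.00148), and STAR, which moves cholesterol into mitochondria (0.74 ± 0.13, adjusted p = 0.0245). NR5A2 also fell in non-pregnant glands on day 14 relative to day 12 (-0.86 ± 0.14, adjusted p = 0.0239). That call passed in 7 of the 12 fits that leave out an array (adjusted p up to 0.103), and not with only the groups compared (adjusted p = 0.196) or with replicates 2 and 3 of the day 14 non-pregnant group both left out (adjusted p = 0.0574). The call of STAR passed in 8 of 12 such fits and was lost in the same other settings (adjusted p = 0.162 and 0.191).

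Of 21 pericyte and smooth muscle genes 14 were measured, and 1 passed. CNN1, the calponin of smooth muscle, had levels of 5.94, 6.16 and 6.43 in day 14 pregnant glands, against 7.78, 7.98 and 7.61 in day 14 non-pregnant glands. On day 12 CNN1 had 6.13, 6.15 and 6.41 in pregnant glands, against 6.32, 6.01 and 6.48 in non-pregnant glands. The day 14 non-pregnant values stood above all others. The list of CNN1 as a whole had a median of 0.11 on day 14, with 8 of 14 genes above 0. For CNN1 the day 14 difference was -1.54 ± 0.15 (adjusted p = 0.000974) and the difference between days in non-pregnant glands 1.38 ± 0.16 (adjusted p = 0.00525). Of all genes 1.94% and 0.502% passed in these comparisons. The call of CNN1 between days was lost with only the groups compared (limma, adjusted p = 0.182).

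Between days in non-pregnant glands, day 14 minus day 12, the median was -0.17 over the pericyte and smooth muscle genes. It was -0.29 over the steroidogenic genes, with 11 of 12 below 0 (53.5% of all genes), and -0.29 over 14 fibroblast genes. Of the fibroblast genes 7 were lower at an unadjusted p under 0.05 in limma, against 6.63% of all genes. The part of these lists in the markers' differences between days was not tested.

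In limma 0 genes of the other lists passed on day 14, and their medians of pregnant minus non-pregnant were 0.22 for 14 fibroblast genes, -0.09 for 14 macrophage genes, 0.15 for 17 T and NK cell genes, -0.16 for 8 neutrophil genes and 0.12 for 9 red blood cell genes. At an unadjusted p under 0.05, 2 fibroblast, 2 macrophage, 1 T and NK cell and 2 red blood cell genes were higher and 3 macrophage genes lower. Over all genes 9.62% were higher and 8.60% lower by that p. The 3′ minus 5′ signal of actin and GAPDH control probe sets, a measure of RNA quality, was 1.44 to 1.60 in day 14 pregnant glands, against 1.29 to 1.43 in day 14 non-pregnant glands, 1.57 to 1.60 in day 12 pregnant and 1.42 to 1.47 in day 12 non-pregnant glands. The part of these lists and of RNA quality in the levels of the markers was not tested.

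Ewes of one group also differed among themselves. After taking out group and batch means, the 36 pairs of markers had a median Pearson correlation of 0.37 over the 12 arrays, with a range of -0.39 to 0.87. Pairs of the other endothelial genes had a median of 0.07 and pairs of all genes 0.01. CD34 and TMEM88 had 0.87, TEK and TMEM88 0.79, CD34 and TEK 0.76, and TEK and CDH5 0.74. TIE1 and TMEM88 had -0.39 and CD34 and TIE1 -0.04, so the markers that were low together on day 14 did not all vary together within groups.

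Over the 9 arrays other than day 14 non-pregnant, with group means but not batch taken out, the marker pairs had a median of 0.30 and a range of -0.70 to 0.78. CD34 and BTNL9 had 0.78 and TIE1 and TEK 0.77 there, whereas CD34 and TMEM88 had -0.13, CD34 and TEK -0.23, TEK and TMEM88 0.20 and TMEM88 and TM4SF18 -0.70. These correlations are across genes of the same arrays, which share their normalization, and they are given as descriptions.

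**Figure D4:**
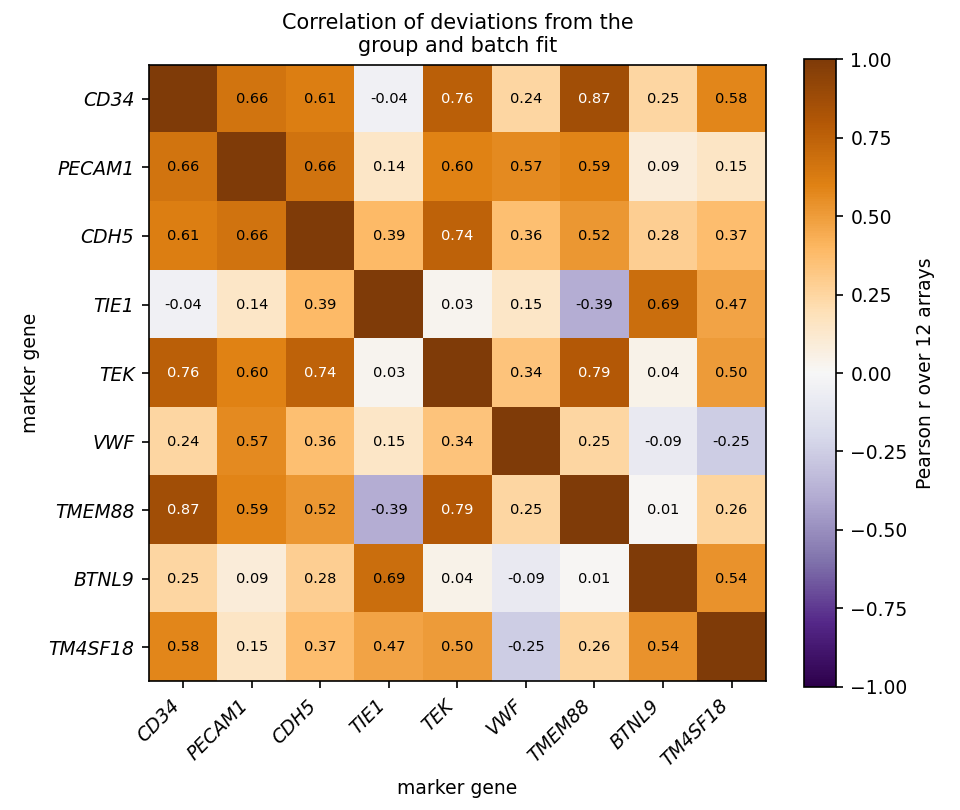
Pearson correlation between endothelial markers of their deviations from the group and batch fit over the 12 arrays, with 1 cell per pair of genes and the colour giving r. CD34, TEK and TMEM88 form a block of high values (0.76 to 0.87), while TIE1 is near 0 with CD34 (-0.04) and lowest with TMEM88 (-0.39). With only group means taken out, the pairs of CD34, TEK and TMEM88 had 0.59 to 0.89 over the 12 arrays. Treated in that way, they had -0.23 to 0.20 over the 9 arrays other than day 14 non-pregnant.

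The mean of the 9 markers, each centred on its own mean, was 0.25, 0.23 and 0.18 in day 14 pregnant glands, against -0.14, -0.68 and -0.54 in day 14 non-pregnant glands. In day 12 pregnant glands it was 0.29, 0.01 and 0.25, against 0.12, 0.10 and -0.07 in day 12 non-pregnant glands. Of 8067 other named genes that were not dim, the 8 with the closest profile over the 12 arrays were SLCO2A1, a prostaglandin transporter (r = 0.96), ADGRG1, an adhesion receptor (0.96), CLEC3B, which encodes tetranectin (0.95), CYP11A1, the side-chain cleavage enzyme (0.95), C1H21orf62 (0.95), STAR (0.95), HOMER2, a scaffold protein (0.95), and EFNB1, an ephrin (0.94). Over the 9 arrays without the day 14 non-pregnant group the closest were GPSM1 (0.94), SMN2 (0.92), EBP (0.90), SNX15 (0.90), CHST11 (0.90), HAPLN3 (0.89), WDR6 (0.88) and SLN (0.87). No gene was on both lists. The markers were picked with the day 14 non-pregnant arrays in view, and those arrays hold the lowest values of the mean. A gene low in that group therefore follows the mean over the 12 arrays in part through this choice. The mean also joins PECAM1, which differed in direction, with TMEM88, BTNL9 and TM4SF18, which were low in that group.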

How the data were processed

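Sheep luteal RNA was hybridised to Affymetrix bovine arrays, 1 array per ewe and 3 ewes in each of 4 groups. Per the submitters' processing notes, the authors' deposited log2 values come from RMA and Affymetrix Expression Console, with each version not given in the sources used here. They carry no detection calls. Species mismatch lowers a probe set's signal, so levels of different probe sets were not read as relative amounts of RNA. They were compared only to take a gene's brightest probe set and to mark dim ones. Of 24128 probe sets 112 controls were left out. Symbols came from GEO's platform annotation, with 13292 probe sets tied to 1 symbol, and can be old. The number of columns not mapped to a sample was 0.

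In limma 3.58.1 a linear model with group means and array batch took in all 12 arrays (R 4.3.3; 7 residual and 4.39 prior degrees of freedom), two-sided, with Benjamini-Hochberg adjustment over 24016 probe sets and a threshold of 0.05. The fit was tested on simulated data. No 2 arrays were identical, and the number of arrays limits the precision. A gene was taken by its brightest probe set, and dim means the lowest 25% of mean level.

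The members and lists were chosen with earlier results of these data known. Named were all members, list genes past the threshold (of other cell types up to 2 per list and comparison) or the 3 with the smallest p where none passed, and the 8 closest profiles. Alternatives were a random block for batch, no batch term, only the groups compared, array weights, trend and robust moderation, no dim probe sets, arrays centred on their median, gene means, leaving out each array, and within-batch values.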

Additional observations from a re-analysis of the deposited data

Results flagged for a closer look

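For CNN1, the smooth muscle calponin, the pregnancy difference on day 14 differed from that on day 12 by -1.43 ± 0.22 in limma's interaction term (adjusted p = 0.0456), where 0.109% of all genes passed. CNN1 averaged 6.18 ± 0.24 in day 14 pregnant glands and 7.79 ± 0.19 in day 14 non-pregnant glands, and 6.23 ± 0.15 in day 12 pregnant glands and 6.27 ± 0.24 in day 12 non-pregnant glands (log2, SD, n = 3 each). Leaving out each array in turn, the term lay between -1.56 and -1.26 and passed in 2 of 12 fits, with adjusted p between 0.0195 and 0.161. The call was also lost in limma with array weights (adjusted p = 0.0652) and with dim probe sets left out (adjusted p = 0.0509). No endothelial marker passed this term.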

How the results depend on the processing

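Each array is of a different ewe, so no paired analysis applies. The labels give no replicate numbers, and those used here only follow the order of deposition. No called difference changed sign under any alternative, and the cause of each change below was not tested unless fewer arrays show it. Of the 13 marker probe sets, 6 called on day 14 became 3 with array weights, 0 with only the groups compared and 1 (TMEM88) without both day 14 non-pregnant arrays of batch A, a setting chosen after seeing the data. Leaving out each array gave 0 to 6: 0 without day 14 pregnant replicate 3, 2 without replicate 1 or 2 of that group and 3 without day 14 non-pregnant replicate 3. CD34 and TMEM88 passed in 11 of the 12 fits, BTNL9 in 8, TIE1 in 7 and the TM4SF18 probe sets in 7 and 8. Since the markers were picked with the day 14 non-pregnant results known, these counts are a description and no test. For non-pregnant day 14 minus day 12, 0 became 1 with array weights (lower) and 4 with no batch term (all lower). With a random block it became 5, of which 4 were lower and 1, the dimmer probe set of PECAM1, was higher. Leaving out each array gave 0 to 3: 3 without day 14 non-pregnant replicate 1 (all lower) and 2 without replicate 2 (1 higher and 1 lower). Of the interaction, 0 became 0 to 1.

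For the other endothelial genes, 1 on day 14 became 0 with array weights or only the groups compared, 2 (1 higher and 1 lower) with centred arrays, with trend and robust moderation or without both batch A arrays, 3 (1 higher and 2 lower) with a random block or no batch term, and 0 to 7 leaving out each array (5 higher and 2 lower without day 14 non-pregnant replicate 1). Gene means gave 0 higher and 1 lower, so the balance of these few calls turned. Between days in non-pregnant glands 0 became 1 with a random block or no batch term (lower) or gene means (higher), 2 without both batch A arrays (1 each way), and 0 to 2 leaving out each array. Over all probe sets, 348 on day 14 became 141 with array weights, 531 with no batch term, 24 with only the groups compared, 174 without both batch A arrays and 88 to 510 leaving out each array. Between days in non-pregnant glands 94 became 462 with a random block, 415 with no batch term, 1 with only the groups compared, 159 without both batch A arrays and 28 to 254 leaving out each array. On day 12, 0 became 1 with only the groups compared and 0 to 5 leaving out each array. Of the interaction, 21 became 50 with a random block or no batch term, 59 without both batch A arrays and 1 to 76 leaving out each array. Of the other named genes, on day 14 CNN1 and NR5A2 passed in 12 of the 12 fits that leave out an array, STAR in 8 and LAMA4 in 3. With 3 ewes per group the arrays limit the precision, and the dim probe set of VWF has little signal over background. The day 14 non-pregnant group spread more than the model pools, so its p-values can be too low.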
